A study of Mus musculus with 6 samples.

Results

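The mouse interleukin genes and the genes of their receptors were followed in an RNA-seq table of gene expression. Members were taken by name, as every entry with a gene name that begins with Il and a digit, after names ending in Rik or -ps were left out and the entry with the highest mean was kept for each name. This gave 81 members of 37753 entries with values. They comprised 38 ligands or antagonists, 40 receptor chains, the soluble binding proteins *Il18bp* and *Il22ra2*, and the enzyme gene *Il4i1*.

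The study compared primary mammary epithelial cells (MEC) with cell lines grown from breast tumors of mice that lack the JNK kinases JNK1 (*Mapk8*) and JNK2 (*Mapk9*) in the mammary epithelium, to ask how gene expression differs in JNK-deficient tumor cells. The 3 MEC libraries came from C57/Bl6J mice of genotype WAPCre+, each from a preparation of 3 to 5 virgin females aged 10 to 12 weeks, grown on collagen I in DMEM/F12 with serum, EGF and insulin. The 3 tumor libraries (MEKO) came from lines 199, 233 and 336, of genotype Mapk8KO Mapk9KO Cre+ and the same strain, each derived from 1 tumor, grown for 2 passages on collagen I and then on uncoated dishes. All 6 libraries therefore carry the *Wap-Cre* transgene, whose promoter is active in luminal cells of the lactating gland, whereas genotype, tumor origin, parity and age of the mice (the tumor mice were bred and watched after weaning), time in culture, medium (serum without added EGF and insulin for the lines) and culture surface change together between the groups and cannot be told apart. Each value is the FPKM of a gene (fragments per kilobase of transcript, scaled to library size). It is adjusted for transcript length, so that levels of different genes can be set side by side. The table gives no read numbers, so the depth behind a value is unknown and low values are the least precise. Differences between the groups are log2 fold changes on log2(FPKM + 1), MEKO minus MEC, which understate the change of genes with low FPKM.

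Interleukins are secreted signals, first described between white blood cells, that bind receptor chains on the surface of the receiving cell. Receptors of the IL-1 family and the IL-17 family pass the signal on through adaptor proteins to NF-kappaB and to the MAP kinases, JNK among them, whereas most other interleukin receptors use JAK kinases and STAT factors. Epithelial cells make several interleukins themselves, mostly of the IL-1 family, the IL-6 group and the IL-20 group, and AP-1, the transcription factor whose JUN subunit is phosphorylated by JNK, is known to act on a number of their genes.

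In the libraries, expression of *Mapk8* was 19.2 to 25.1 FPKM in MEC and 5.93, 3.12 and 1.37 FPKM in lines 199, 233 and 336. That of *Mapk9* was 21.5 to 24.4 FPKM in MEC and 7.62, 3.155 and 3.07 FPKM in these lines. Both differed in the direction of the labels, and among the lines both were highest in line 199. These values cover all exons of a gene, whether deleted or not. Summed FPKM was 557991 to 638365 per library. Markers of luminal epithelium were present in every library, but their summed level was 5666 to 9207 FPKM in MEC and 892.1 to 2204 in the tumor lines. By the test used for the interleukins, 5 of the 7 (*Krt8*, *Krt19*, *Epcam*, *Elf5* and *Cdh1*) were called lower, where 7.26% of all tested entries were. *Krt18* was not called, and *Cldn3* was 299.5 to 313.5 FPKM in MEC and 102.8, 241.7 and 357.2 FPKM in the lines. *Elf5* was at or under 0.461 FPKM in the tumor lines against 31.5 to 44.3 in MEC. Markers of basal cells summed to 1532 to 2849 FPKM in MEC and to 2276, 10.6 and 58.6 in lines 199, 233 and 336, and fibroblast markers to 118.1 to 207.4 in MEC and to 1111, 2.43 and 4.23. Leukocyte markers summed to 30.0 to 52.1 FPKM in MEC and to 1.01, 3.08 and 24.9 in the 3 lines. In the first group most of this was *Lyz2* (16.6 to 32.9), with *Ptprc*, the gene of CD45, at or under 0.399 and the T cell gene *Cd3g* at 0. In line 336, *Cd68* accounted for 23.4 FPKM, above its 3.46 to 6.59 FPKM in MEC, while it was 0.771 and 2.73 FPKM in lines 199 and 233. In such bulk samples, fewer cells of a type and less RNA per cell cannot be told apart.

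Of the 81 members, 39 were above 1 FPKM in at least 1 library, among them 16 ligands and 21 receptor chains, and 18 were above 1 FPKM in all 6. In the 3 MEC libraries 33, 34 and 33 members passed this level, and in lines 199, 233 and 336 it was 31, 22 and 26. In line 233 this was 27.2% of the members, against 40.7% to 42.0% in MEC, while the share of all entries above 1 FPKM was 30.3% to 31.2% in the tumor lines and 32.4% to 32.5% in MEC. The other 42 members never exceeded 1 FPKM, and 11 of them were listed at 0 in every library: *Il11ra2*, *Il12a*, *Il12b*, *Il13*, *Il17a*, *Il1f10*, *Il1rapl2*, *Il25*, *Il3*, *Il31* and *Il9*. Several of these genes are known as products of T cells. *Il2*, *Il4*, *Il5*, *Il10*, *Il17f*, *Il21* and *Il22*, most of them also made by T cells, were detected, but at no more than 0.0676 FPKM in any library. The chains through which lymphocytes receive such signals were also low, with *Il2ra*, *Il2rb*, *Il7r*, *Il21r* and *Il10ra* at or under 0.356 FPKM. The 31 members detected without passing 1 FPKM also included *Il12rb1*, *Il12rb2*, *Il16*, *Il17rb*, *Il19*, *Il20ra*, *Il23r*, *Il27* and *Il27ra*.

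**Figure D1:**
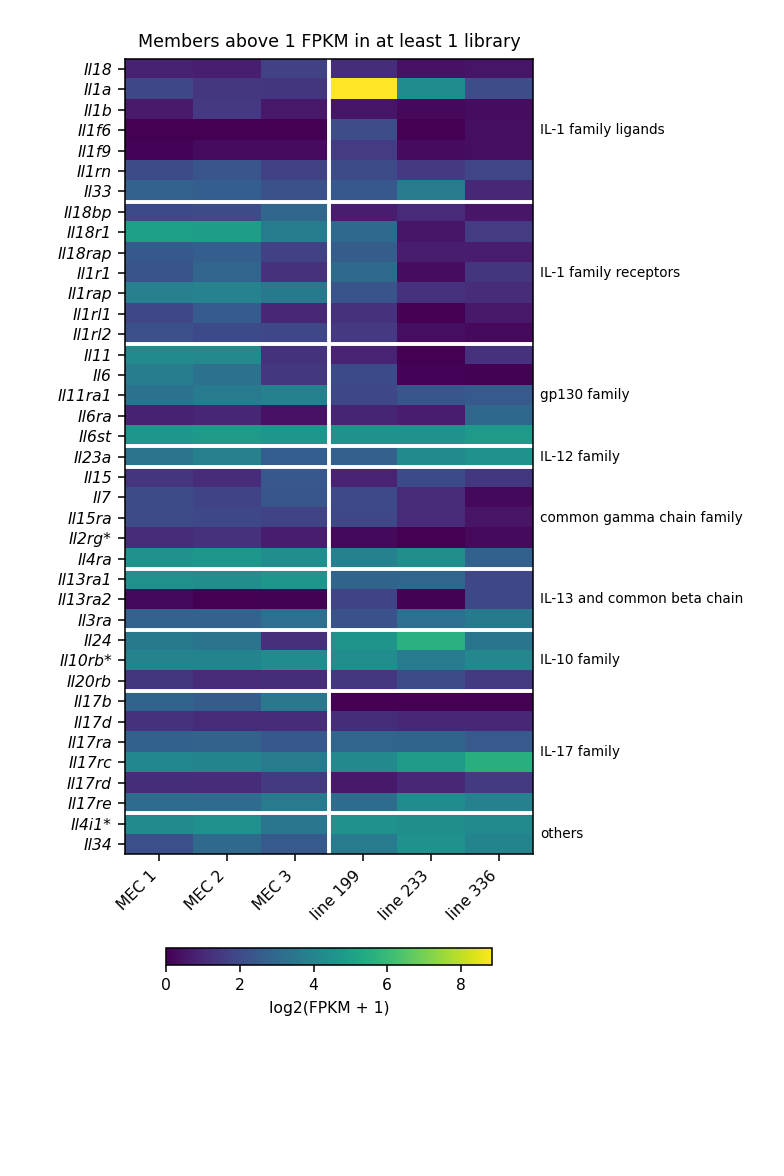
Expression of the 39 members above 1 FPKM in at least 1 library (rows, grouped by family) in the 3 MEC preparations and the 3 tumor lines (columns), as log2(FPKM + 1). *Il1a* in line 199 is the highest value, *Il6st* is nearly even, and *Il17b* is at 0 in the 3 tumor lines; an asterisk marks a member whose entry is joined with other genes.

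The summed level of the ligands was 79.3, 80.3 and 45.4 FPKM in the 3 MEC libraries and 525.4, 125.7 and 59.2 FPKM in lines 199, 233 and 336. *Il1a* made up 87.9% of this sum in line 199, 14.9% in line 233 and 5.48% in line 336, against 2.06% to 3.39% in MEC. Without *Il1a*, the 3 lines summed to 63.7, 106.9 and 56.0 FPKM and the MEC to 76.7, 78.6 and 43.8, so that the ranges of the groups overlapped. The most abundant ligand was *Il11* in MEC 1 and MEC 2, *Il17b* in MEC 3, and *Il1a*, *Il24* and *Il23a* in lines 199, 233 and 336. Without *Il10rb* and *Il2rg*, whose entries are joined with other genes, the receptor chains summed to 178.4, 187.2 and 155.8 FPKM in MEC. In the tumor lines they summed to 115.4, 122.1 and 135.7 FPKM, and the ranges of the groups did not overlap. *Il18r1* led the receptors in MEC 1 and MEC 2, *Il6st* in MEC 3 and line 199, and *Il17rc* in lines 233 and 336.

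A limma fit over 12461 entries with a mean of at least 1 FPKM tested 33 of the members, 12 of them ligands and 19 receptor chains. A gene was called with a Benjamini-Hochberg adjusted p under 0.05 and a log2 fold change beyond 0.75. By this test 6 members were lower in the tumor lines (*Il17b*, *Il18r1*, *Il1rap*, *Il13ra1*, *Il18bp* and *Il11ra1*), where 7.26% of all tested entries were called lower. A single member, *Il34*, was higher, where 2.64% of all tested entries were. The other 26 were not called, 5 of them with an unadjusted p under 0.05 (*Il1rl2*, *Il11*, *Il6*, *Il17rc* and *Il1rl1*). The median log2 fold change of the 33 was -0.22, beside 0.01 over all tested entries, and it was -0.18 for the ligands and -0.58 for the receptor chains. The values of the 3 tumor lines all lay below those of the 3 MEC for 8 members and above them for 4, while 18.7% and 18.5% of all tested entries were separated in this way, so these counts were near the background. An exact permutation test of 3 against 3 libraries cannot give a p below 0.1, which is the value for each of these 12 members. Since each tumor library is a different line, the p-values measure the spread between lines and between preparations.

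**Figure D2:**
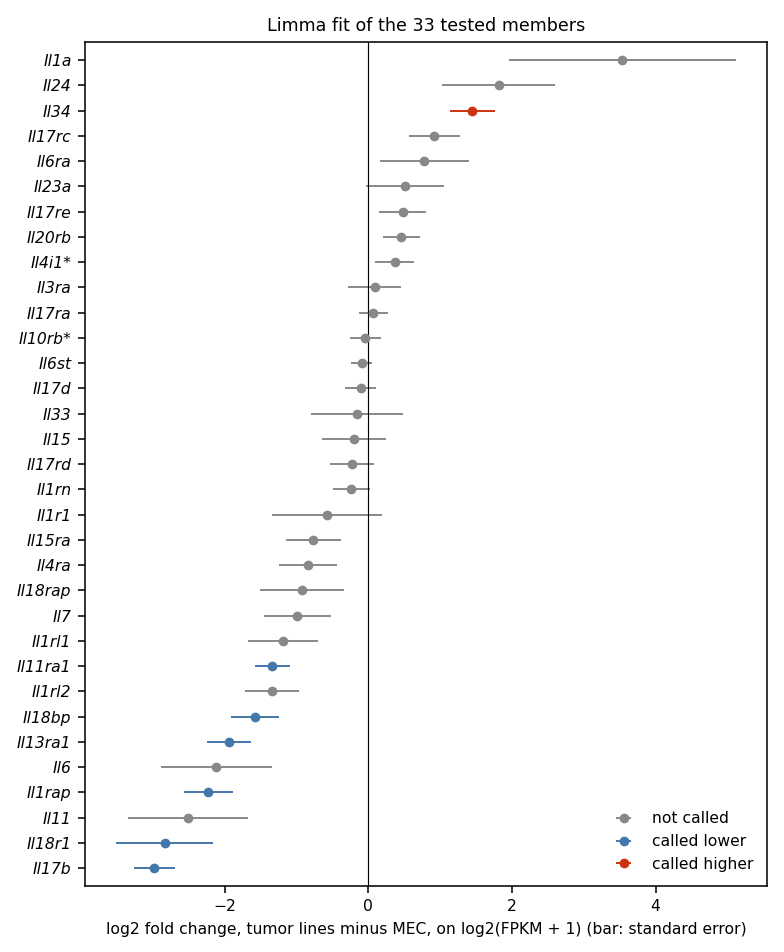
Log2 fold change (MEKO minus MEC, on log2(FPKM + 1)) of the 33 tested members in the limma fit, with bars for the standard error and colors for the call. *Il1a* has the highest fold change and the widest bar, and is not called, whereas *Il17b*, *Il1rap* and *Il13ra1* lie far from 0 with narrow bars.

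The 3 lines were also set against the MEC one at a time, without a test because each is 1 library. A member was counted as beyond the MEC range when its FPKM lay outside the 3 MEC values and differed from their mean by more than 1 on log2(FPKM + 1). In line 199, 3 of the 33 members were higher and 7 lower, where 7.89% and 12.3% of all tested entries were. In line 233, 4 were higher and 12 lower, beside 6.36% and 13.8% of entries. In line 336, 4 were higher and 15 lower, beside 6.79% and 14.4%. The median size of the difference from the MEC mean was 0.60, 0.98 and 1.23 for the members in lines 199, 233 and 336, and 0.46, 0.40 and 0.43 for all tested entries. The members lower in every line were *Il11*, *Il11ra1*, *Il13ra1*, *Il17b*, *Il18bp*, *Il18r1* and *Il1rap*, and *Il34* was higher in every line. *Il33* was higher in line 233 and lower in line 336. Of the 33, 11 were within these bounds in all 3 lines.

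Promoter sequence is shown for members with large differences that hold a match to the AP-1 or the NF-kappaB motif, the factors at the end of the JNK and IL-1 receptor pathways. The 250 bases before each start in the RefSeq table (build GRCm38.p6) were searched on both strands, with 64 of the 81 members matched. TGANTCA, the AP-1 motif, was found in 14 of 79 windows of members (17.7%) and in 2217 of 32851 windows of all genes (6.75%). Among members above 1 FPKM, the genes with it were *Il1a*, *Il1rn*, *Il6*, *Il11*, *Il13ra2* and *Il15ra*, a set of members with values above and below those of MEC. GGGNNTTCC, a short form of the NF-kappaB motif, was found in 3 of 79 member windows (3.8%) and in 4.98% of all windows, with *Il13ra1* and *Il1r1* among members above 1 FPKM. The letters of the motifs do not allow them to overlap, and a match is a description of the sequence only. NF-kappaB sites take other forms that were not searched, so a window without capitals for this motif, that of *Il6* included, may still hold one. The windows are given 5′ to 3′ along each gene, with the motif in capitals. They are chr2:129309973-129310222 (minus strand) for *Il1a*, chr5:30012864-30013113 (plus) for *Il6*, chr7:4778142-4778391 (minus) for the second start of *Il11*, chrX:147429193-147429442 (minus) for *Il13ra2*, all with TGANTCA, and chrX:36111858-36112107 (plus) for *Il13ra1*, with GGGNNTTCC. The motif begins 12, 249, 98, 193 and 202 bases before the start.
Il1a: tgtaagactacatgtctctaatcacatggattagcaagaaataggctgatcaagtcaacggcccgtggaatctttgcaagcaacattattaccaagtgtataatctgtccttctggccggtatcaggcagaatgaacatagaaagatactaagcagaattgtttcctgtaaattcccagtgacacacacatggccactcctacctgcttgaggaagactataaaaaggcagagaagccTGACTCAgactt
Il6: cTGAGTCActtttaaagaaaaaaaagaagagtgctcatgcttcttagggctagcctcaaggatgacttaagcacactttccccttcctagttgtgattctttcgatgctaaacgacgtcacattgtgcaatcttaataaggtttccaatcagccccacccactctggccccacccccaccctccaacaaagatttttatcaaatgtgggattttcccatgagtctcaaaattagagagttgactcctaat
Il11: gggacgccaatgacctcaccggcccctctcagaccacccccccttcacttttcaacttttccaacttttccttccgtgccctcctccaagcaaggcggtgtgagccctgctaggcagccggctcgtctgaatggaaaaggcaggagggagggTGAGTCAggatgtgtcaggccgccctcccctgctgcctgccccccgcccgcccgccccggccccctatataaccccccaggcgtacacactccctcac
Il13ra2: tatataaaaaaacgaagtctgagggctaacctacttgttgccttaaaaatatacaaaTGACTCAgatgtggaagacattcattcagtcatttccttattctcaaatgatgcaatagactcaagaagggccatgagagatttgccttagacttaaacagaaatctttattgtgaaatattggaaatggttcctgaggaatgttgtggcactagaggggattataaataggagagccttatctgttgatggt
Il13ra1: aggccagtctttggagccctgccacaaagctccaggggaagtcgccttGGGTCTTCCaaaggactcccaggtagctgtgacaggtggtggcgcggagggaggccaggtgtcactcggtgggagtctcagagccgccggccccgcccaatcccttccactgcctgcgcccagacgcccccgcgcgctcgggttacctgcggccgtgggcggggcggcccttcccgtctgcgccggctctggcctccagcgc

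Among the IL-1 family ligands, *Il1a* varied most between lines. It encodes IL-1 alpha, which is active as its full-length form, can be released by damaged cells and binds the receptor IL1R1. The gene lies on the minus strand of chromosome 2 (chr2:129299610-129309972, GRCm38), with the AP-1 motif 12 bases from its start as shown above. Its level was 2.67, 1.65 and 1.54 FPKM in the 3 MEC and 461.7, 18.8 and 3.24 FPKM in lines 199, 233 and 336. All 3 lines were above all MEC values, line 199 by 173-fold over the highest of them, line 233 by 7.03-fold and line 336 by 1.21-fold. The spread between the lines was wide, and the log2 fold change of 3.54 ± 1.58 (SE) was not called, with a limma adjusted p of 0.205 and 0.0885 to 0.396 over 13 alternative fits. Line 199, in which *Il1a* was highest, is also the line in which fibroblast markers summed to 1111 FPKM. Of these 8 markers, 6 were above 1 FPKM there, 1 in each other line, and 7, 7 and 6 in MEC. *Col1a1* (599.7 FPKM) and *Col1a2* (408.1 FPKM) held most of the sum. *Col3a1*, *Pdgfra* and *Pdgfrb* were also above all MEC values, whereas *Dcn*, *Lum* and *Thy1* were below them. Basal markers summed to a value within the MEC range, with *Krt5*, *Krt14* and *Trp63* above all MEC values and *Acta2*, *Myh11* and *Cnn1* below. The study describes adenocarcinoma, adenosquamous carcinoma and mixed tumors in mice of the MEKO genotype, and the histology of each line is not given here. The part of such cells or of histology in the *Il1a* value was not tested. An antisense gene, *Gm14023*, covers 11.2% of the exon bases of *Il1a*. The 17 other tested genes within 1000 kb of the locus had median differences from the MEC mean of 0.69, 0.20 and 0.33 in the 3 lines.

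The other agonists of the family were at much lower levels than *Il1a* in line 199, and *Il33*, the only one of them tested, was not called. *Il1b*, which encodes IL-1 beta, the form that needs cleavage by caspase-1, was 0.547, 1.78 and 0.516 FPKM in MEC and 0.408, 0.142 and 0.241 FPKM in the tumor lines, too low on average for the fit. *Il1f6* and *Il1f9* are the genes of IL-36 alpha and IL-36 gamma, signals of squamous epithelia. In the 3 MEC, *Il1f6* was at 0 and *Il1f9* was 0.0597, 0.185 and 0.198 FPKM. In line 199 they reached 3.28 and 1.92 FPKM, while lines 233 and 336 had 0 and 0.261 FPKM of *Il1f6* and 0.195 and 0.256 of *Il1f9*. Line 199 was thus the only library above 1 FPKM for either gene. *Il18* was above 1 FPKM in MEC 3 (2.31) and line 199 (1.24) only. *Il33*, the gene of a nuclear cytokine released on injury, was 3.56 to 5.96 FPKM in MEC and 4.46, 11.8 and 1.02 FPKM in the 3 lines, so that line 233 lay above the MEC range, line 336 below it and line 199 within it. *Il1rn*, which encodes the receptor antagonist that competes with IL-1 alpha and IL-1 beta, was 2.28 to 3.98 FPKM in MEC and 1.77 to 3.13 FPKM in the tumor lines and was not called (adjusted p = 0.572 in limma). The ratio of *Il1a* to *Il1rn* FPKM was 0.414 to 0.854 in MEC and 147.5, 10.6 and 1.26 in lines 199, 233 and 336, and this order follows *Il1a*.

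**Figure D3:**
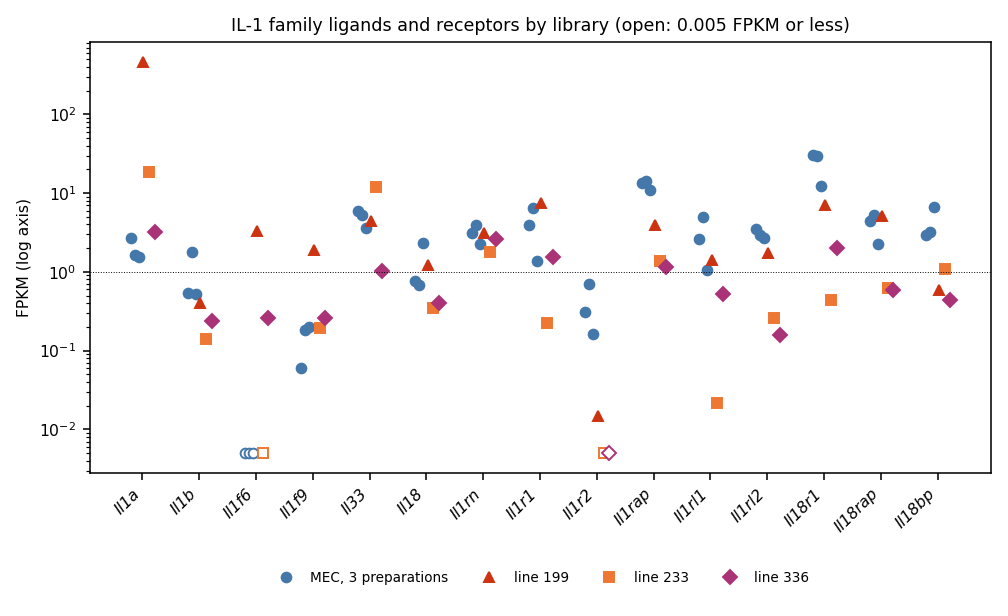
FPKM (log axis) of IL-1 family ligands, the antagonist *Il1rn*, receptors and *Il18bp* in each MEC preparation (circles) and tumor line (triangle 199, square 233, diamond 336), with values of 0 drawn open at the bottom and a dotted line at 1 FPKM. The tumor lines lie above the MEC for *Il1a* and below them for *Il1rap*, *Il1rl2*, *Il18r1* and *Il18bp*, and for most receptors line 199 is the tumor line nearest to the MEC.

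Among the 7 tested members of the receptor group of the IL-1 family, 3 were called lower, where 7.26% of all tested entries were. The group includes the binding protein gene *Il18bp*. *Il1rap* encodes the accessory chain that the receptors for IL-1, IL-33 and IL-36 share. It was 13.4, 14.2 and 10.9 FPKM in MEC and 3.92, 1.37 and 1.17 FPKM in lines 199, 233 and 336, without overlap, and fell by 2.23 ± 0.34 (SE) on the log2 scale (limma adjusted p = 0.0142). The call was lost when any 1 of the MEC libraries was left out (adjusted p = 0.0512 to 0.0769). *Il1rap* lies on chromosome 16 (chr16:26581704-26730117), where the 5 other tested genes within 1000 kb had median differences from the MEC mean of -1.09, -3.35 and -2.02 in the 3 lines. A median of so few genes can rest on a single one. In line 233 this median equaled the difference of the basal marker *Trp63* (-3.35), whose differences were 0.616 and -0.989 in lines 199 and 336. Whether the region differs as a whole was not tested. *Il18r1*, the ligand-binding chain of the IL-18 receptor, was 30.6, 29.7 and 12.2 FPKM in MEC and 7.15, 0.433 and 2.00 FPKM in the lines. It fell by 2.84 ± 0.68 (SE) on the log2 scale with an adjusted p of 0.0485, close to the threshold. That call held in only 3 of 13 alternative fits, and was lost without MEC 1, MEC 2, MEC 3, line 233 or line 336 (adjusted p = 0.0905 to 0.175). *Il18bp*, which encodes the secreted protein that captures IL-18, was 2.96, 3.21 and 6.67 FPKM in MEC and 0.582, 1.10 and 0.433 FPKM in the lines, and fell by 1.58 ± 0.33 (SE) with an adjusted p of 0.0339. This call held in only 4 of 12 alternative fits. Leaving out any single library ended it (adjusted p = 0.0504 to 0.0959), as did no expression filter (0.0578) and quantile normalization (0.0709).

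The genes of *Il1r2*, *Il1r1*, *Il1rl2*, *Il1rl1*, *Il18r1* and *Il18rap* lie next to one another on chromosome 1 (chr1:40074079-40551705, 478 kb), and line 199 differed from the other 2 lines across most of them. *Il1rl2*, the receptor for IL-36, was 3.50, 2.97 and 2.68 FPKM in MEC and 1.74, 0.260 and 0.159 FPKM in lines 199, 233 and 336. The groups did not overlap, yet the gene was not called (log2 fold change -1.34, adjusted p = 0.0731), while without line 199 its adjusted p was 0.00566. *Il1r1*, the signaling receptor for IL-1, was 3.94, 6.39 and 1.39 FPKM in MEC and 7.40, 0.224 and 1.56 FPKM in the lines. Line 199 was thus above every MEC library and line 233 below all of them. *Il18rap*, the accessory chain of the IL-18 receptor, was 2.24 to 5.32 FPKM in MEC, 5.18 in line 199, and 0.622 and 0.595 FPKM in lines 233 and 336. *Il1rl1*, the receptor for IL-33, was 2.65, 4.91 and 1.05 FPKM in MEC and 1.40, 0.0218 and 0.521 FPKM in the lines. *Il1r2*, the gene of the decoy receptor, was 0.161 to 0.708 FPKM in MEC, 0.0147 in line 199 and 0 in the others. The 6 other tested genes within 1000 kb of this cluster had median differences of -0.23, -0.57 and -0.21.

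*Il6* and *Il11*, the interleukins that signal through the shared chain gp130, varied among the MEC themselves. *Il11* was 17.4, 17.0 and 1.48 FPKM in MEC and 0.826, 0 and 1.42 FPKM in lines 199, 233 and 336. All lines were below all MEC, but MEC 3 lay next to line 336, and the fold change was not called (log2 fold change -2.51, adjusted p = 0.112); without MEC 3 the adjusted p was 0.0218. *Il6* was 12.2, 9.13 and 1.69 FPKM in MEC and 2.93, 0.0654 and 0.0434 FPKM in the lines, so that line 199 lay above MEC 3 (log2 fold change -2.12, adjusted p = 0.138). The 5 endothelial markers followed the same split of the MEC, with sums of 16.9 and 19.7 FPKM in MEC 1 and MEC 2 and 2.13 FPKM in MEC 3, none of them above 1 FPKM there, and of at most 2.01 in the tumor lines. The split was not particular to these markers. The adipocyte sum, all of it *Fabp4* in MEC, was 7.74, 11.7 and 1.28 FPKM in MEC 1, MEC 2 and MEC 3. Sums of luminal, basal, fibroblast and mast cell markers were also lowest in MEC 3, and that of leukocyte markers was highest there. The part of such cells in the *Il6* and *Il11* values was not tested.

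Of the 5 tested members of this group, 1, a receptor chain, was called lower, where 7.26% of all tested entries were. *Il11ra1*, the receptor for IL-11, was 8.85, 11.3 and 13.9 FPKM in MEC and 2.79, 4.11 and 4.74 FPKM in the lines. It fell by 1.34 ± 0.24 (SE) on the log2 scale with no overlap (limma adjusted p = 0.0225), a call that was lost without MEC 1, MEC 2, MEC 3 or line 233 (adjusted p = 0.0540 to 0.101). *Il6st*, which encodes gp130 itself, was 24.1, 26.2 and 24.1 FPKM in MEC and 21.6, 21.5 and 26.6 FPKM in the lines, the smallest standard error of the tested members (log2 fold change -0.10 ± 0.15). *Il6ra*, the receptor for IL-6, was 0.758, 0.950 and 0.356 FPKM in MEC and 0.903, 0.580 and 6.85 FPKM in the lines. Line 336 alone stood apart, at 7.21-fold the highest MEC value, and the gene was not called (adjusted p = 0.451). Of 11 leukocyte markers 2 were above 1 FPKM in line 336 and their sum of 24.9 FPKM, mostly *Cd68*, was below that of each MEC library.

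*Il13ra1*, which pairs with the IL-4 receptor chain to bind IL-4 and IL-13, was 20.9, 19.2 and 24.1 FPKM in MEC and 6.23, 6.43 and 2.65 FPKM in lines 199, 233 and 336. It fell by 1.94 ± 0.31 (SE) on the log2 scale without overlap (limma adjusted p = 0.0154), and the call was lost without any 1 of the MEC libraries (0.0667 to 0.0783). *Il4ra*, its partner, was 19.4 to 24.1 FPKM in MEC and 13.7, 19.9 and 5.72 FPKM in the lines and was not called (adjusted p = 0.235). The ratio of *Il4ra* to *Il13ra1* FPKM was 0.806 to 1.25 in MEC and 2.19, 3.10 and 2.16 in the lines. *Il13ra2*, the high-affinity receptor for IL-13 that is known as a decoy, had the reverse order in 2 of the lines. It was 0.146, 0.0150 and 0.0478 FPKM in MEC and 2.55, 0.0394 and 2.79 FPKM in lines 199, 233 and 336. Lines 199 and 336 were 17.5-fold and 19.2-fold above the highest MEC value and line 233 was within the MEC range, with a mean too low for the fit. In line 336 the FPKM of *Il13ra2* was 1.05 times that of *Il13ra1*, in line 199 it was 0.410 times, and in the other libraries at most 0.00696 times. *Il13* was at 0 in every library and *Il4* at or under 0.0676 FPKM. *Il3ra*, the receptor chain for IL-3, was 5.85 to 8.45 FPKM in MEC and 3.74 to 11.03 FPKM in the lines.

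The common gamma chain group, named after the receptor chain encoded by *Il2rg*, had 2 ligands above 1 FPKM, and neither it nor its receptors gave a call among 4 tested members. *Il7*, a growth signal for lymphocytes, was 3.03, 2.52 and 4.21 FPKM in MEC and 2.87, 1.15 and 0.138 FPKM in lines 199, 233 and 336 (limma adjusted p = 0.222). *Il15*, a signal for natural killer cells, was 1.18 to 4.34 FPKM in MEC and 0.841 to 2.92 in the lines. *Il15ra*, the chain that presents IL-15, was 2.48 to 3.06 FPKM in MEC and 2.74, 1.08 and 0.379 FPKM in the lines. Line 336 had the lowest value of *Il7* and *Il15ra*, and line 199 lay within or near the MEC for both. The entry of *Il2rg* is joined with *Gm20489* and *Gm614*, so its reads cannot be assigned to it alone. It was 0.598 to 1.39 FPKM in MEC and at most 0.162 FPKM in the lines. Of 11 leukocyte markers 5, 6 and 6 were above 1 FPKM in MEC and 0, 1 and 2 in the lines, although *Cd68* was above its MEC values in line 336, and their part in this value was not tested.

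*Il17b*, a ligand of the IL-17 family, gave the lowest adjusted p of the members. It was 6.18, 5.09 and 10.4 FPKM in MEC and was listed at 0 in all 3 tumor lines. The log2 fold change on log2(FPKM + 1) was -2.99 ± 0.28 (SE), with an adjusted p of 0.00324 in limma, and the call held in each of the 12 alternative fits that tested the gene. An antisense gene, *Gm38165*, covers 14.5% of its exon bases. Its known receptor chain, *Il17rb*, was 0.151 to 0.352 FPKM in MEC and at most 0.0216 FPKM in the lines. The other IL-17 receptor chains differed from these. *Il17rc*, which pairs with IL17RA to bind IL-17A and IL-17F, was 16.3, 15.1 and 11.8 FPKM in MEC and 16.9, 27.6 and 46.1 FPKM in the lines. All lines were above all MEC, though line 199 only narrowly, and the difference was not called (log2 fold change 0.92, adjusted p = 0.158); without line 199 the adjusted p was 0.0357. *Il17ra* was 4.44 to 6.13 FPKM in MEC and 4.57 to 6.35 in the lines, so that the ratio of *Il17rc* to *Il17ra* was 2.46 to 2.89 in MEC and 2.66, 4.41 and 10.1 in the lines. *Il17re*, the receptor for IL-17C, was 7.46 to 11.5 FPKM in MEC and 7.77, 18.2 and 13.9 FPKM in the lines. *Il17d* and *Il17rd* were between 0.529 and 1.87 FPKM in all libraries and were not called.

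*Il34* was the single member called higher. It encodes a ligand of the receptor CSF1R, through which macrophages are maintained, and is unrelated in sequence to the other ligand of that receptor, CSF1. It was 3.45, 7.29 and 4.73 FPKM in MEC and 11.2, 21.1 and 14.8 FPKM in lines 199, 233 and 336. The lowest line was 1.54-fold above the highest MEC, the mean was 3.04-fold higher, and the log2 fold change was 1.44 ± 0.32 (SE, limma adjusted p = 0.0378). The call was lost without MEC 1, MEC 2, MEC 3, line 233 or line 336 (adjusted p = 0.0681 to 0.143). *Csf1* was 72.4 to 148.1 FPKM in MEC and 314.9, 141.1 and 72.4 FPKM in the lines, and *Csf1r* was 1.46 to 1.94 FPKM in MEC and 0.152, 0.333 and 1.41 FPKM in the lines. Neither was called. The 24 other tested genes within 1000 kb of *Il34* on chromosome 8 (chr8:110741829-110805924) had median differences of 0.10, -0.19 and 0.04.

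Of the IL-10 family, *Il24*, *Il20rb* and the joined entry of *Il10rb* were tested and not called. *Il24*, a member of the IL-20 group that signals to epithelial cells, was 11.02, 9.48 and 1.35 FPKM in MEC and 23.2, 48.4 and 9.78 FPKM in lines 199, 233 and 336. Lines 199 and 233 were above all MEC values, line 233 by 4.39-fold, while line 336 lay between MEC 2 and MEC 1 (log2 fold change 1.82, limma adjusted p = 0.195). MEC 3 was again the lowest, as for *Il6* and *Il11*. *Il20rb*, a receptor chain for IL-24, was 1.11 to 1.501 FPKM in MEC and 1.64, 3.15 and 1.82 FPKM in the lines, above MEC in every line (log2 fold change 0.46, adjusted p = 0.292). Its partners *Il20ra* and *Il22ra1* were low, at no more than 0.124 FPKM and at 0.137 to 0.668 FPKM in the tumor lines for the second, which was at most 0.0201 FPKM in MEC. *Il10rb*, whose entry is joined with *Gm21970* and *Ifnar2*, was 14.7 to 18.9 FPKM in MEC and 12.0 to 19.3 FPKM in the lines. *Il23a*, the only gene of the IL-12 family above 1 FPKM, was 5.20 to 13.5 FPKM in MEC and 5.50, 17.4 and 22.1 FPKM in the lines. The partner subunit that its product needs, *Il12b*, was at 0 throughout, and *Il23r* at or under 0.119 FPKM. The entry of *Il4i1*, which is joined with *Nup62*, was 10.0 to 20.6 FPKM in MEC and 18.0 to 22.3 FPKM in the lines. Genes of the opposite strand, *Atf5* and *Tbc1d17*, cover 85.9% of the exon bases of *Il4i1*, so reads of this entry cannot be assigned to it alone.

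**Figure D4:**
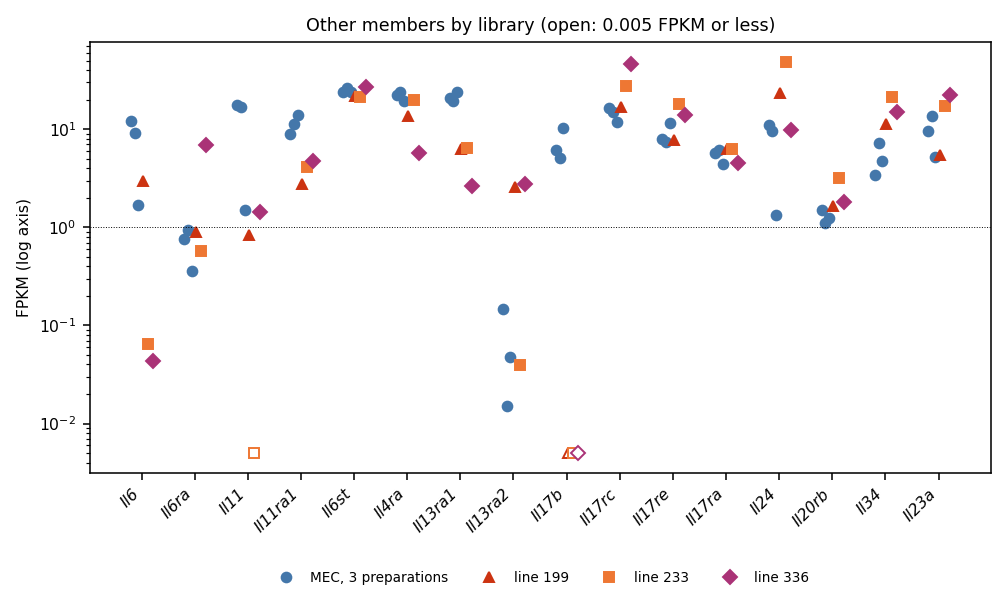
FPKM (log axis) of members outside the IL-1 family in each MEC preparation (circles) and tumor line (triangle 199, square 233, diamond 336), with values of 0 drawn open at the bottom and a dotted line at 1 FPKM. *Il13ra1* and *Il11ra1* lie below the MEC and *Il34* above them in every line, *Il6* and *Il11* are spread within the MEC, and *Il13ra2* is above 1 FPKM in lines 199 and 336.

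The genes that act with these ligands and receptors were described by lists, with the same test. Among adaptors and kinases of the IL-1 receptor, 1 of 13 tested genes was lower and none higher, near the 7.26% and 2.64% of all tested entries, with a median log2 fold change of 0.04. The counts of the lists that follow are to be read against the same shares. That gene was *Peli2*, a ubiquitin ligase of the pathway, at 2.16 to 3.97 FPKM in MEC and at most 0.297 in the lines (limma adjusted p = 0.0150, but 0.0672 without MEC 1). *Myd88*, the adaptor of the family, was 15.95 to 20.58 FPKM in MEC and 8.88, 18.6 and 29.3 FPKM in the lines. Among genes that mature IL-1 family proteins or let them out of the cell, 2 of 8 were lower and none higher, with a median of -0.64. *Pycard*, the inflammasome adaptor that brings caspase-1 together, was 5.599, 6.62 and 5.35 FPKM in MEC and 0, 0 and 0.161 FPKM in the lines (log2 fold change -2.70, adjusted p = 0.00175). *Ctss*, a protease of antigen-presenting cells, was 4.65 to 8.90 FPKM in MEC and at most 0.0440 FPKM in the lines (adjusted p = 0.00297), beside leukocyte markers that summed to 30.0 to 52.1 FPKM in MEC and 1.01, 3.08 and 24.9 in the lines. Of the 5 leukocyte markers tested, *Lyz2*, *Tyrobp* and *Fcer1g* were called lower, while *Cd68* and *Csf1r* were not and were highest among the lines in line 336. Both genes are used by leukocytes too, and the part of these cells was not tested.

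Among other ligands and receptors that use gp130, 2 of 8 tested genes were lower, with a median of -0.91. *Osmr*, the receptor for oncostatin M, was 16.2, 15.4 and 23.7 FPKM in MEC and 7.04, 2.39 and 0.901 FPKM in the lines (limma adjusted p = 0.0390), and *Lifr*, the receptor for LIF, was 1.94 to 2.32 and at most 0.516 FPKM (adjusted p = 0.0251). The call of *Osmr* was lost without MEC 1, MEC 2, MEC 3, line 233 or line 336 (adjusted p = 0.0664 to 0.144), and that of *Lifr* without any 1 of the MEC (0.0603 to 0.102). A pseudocount of 0.1 also ended both calls (0.0543 and 0.0517). No expression filter ended that of *Osmr* (0.0693), and quantile normalization that of *Lifr* (0.0549). *Lif* itself was 58.8 to 81.4 FPKM in MEC and 43.6 to 58.8 FPKM in the lines and was not called. Of 18 tested JAK kinases, STAT factors and SOCS inhibitors, 3 were lower and none higher, with a median of -0.40. *Stat3*, the main factor downstream of gp130, was 69.4, 66.7 and 75.9 FPKM in MEC and 26.5, 22.9 and 17.9 FPKM in the lines (log2 fold change -1.63, adjusted p = 0.00457). *Stat5a*, which acts in luminal differentiation, was 9.40 to 12.6 and 2.15 to 3.03 FPKM (adjusted p = 0.00484), and *Stat5b* was 10.7 to 11.3 and 4.50 to 6.78 FPKM (adjusted p = 0.0314). The calls of *Stat3* and *Stat5a* held in each of 13 alternative fits. That of *Stat5b* was lost without MEC 1, MEC 2, MEC 3, line 233 or line 336 (adjusted p = 0.0691 to 0.140). It was also lost with no expression filter (0.0511). Of 7 luminal markers 5 were called lower in the lines, where 7.26% of all tested entries were, with *Krt18* and *Cldn3* not called. The part of the luminal markers in these values was not tested. Of 11 tested adaptors and effectors of the IL-17 receptor, 2 were lower, with a median of -0.11, namely *Cebpd* at 83.1 to 118.3 FPKM in MEC and 2.68 to 27.4 in the lines (adjusted p = 0.0402) and *Traf5* (adjusted p = 0.0478). The call of *Cebpd* was lost without MEC 1, MEC 2, MEC 3 or line 336 (adjusted p = 0.0879 to 0.149), and that of *Traf5* without any single library but line 199 (0.0612 to 0.141). Both calls were also lost with a pseudocount of 0.1 (0.0501 and 0.0616). No expression filter ended that of *Cebpd* (0.0703). Quantile normalization (0.206) and upper-quartile scaling (0.0515) ended that of *Traf5*. Of 9 tested partners that share receptors with interleukins under other names, such as *Csf1* and *Tslp*, none was called, 0 lower and 0 higher, with a median of -0.06. *Tslp*, an epithelial signal that binds a complex with the IL-7 receptor chain, was 0.219 to 1.11 FPKM in MEC and 23.7, 0.679 and 9.63 FPKM in the lines. The lines high in *Tslp* were those high in *Il13ra2*, an overlap picked after the values were seen and not tested.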

How the data were processed

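RNA-seq libraries from 3 MEC preparations and 3 MEKO tumor lines were analysed, 1 library each, grouped by the titles and genotype labels, which give no sequencing date or batch. The members and gene lists were chosen with earlier results of these data known. The deposited table holds FPKM values, which the authors made by aligning trimmed paired-end reads to mm10 (GRCm38) with Bowtie2 and TopHat2 2.0.14 and quantifying genes with Cufflinks 2.2.1. Whether counting used strand is not given in the sources used here. Of 37755 entries, 2 held no values. FPKM values keep no counts, so the depth is unknown and no interval was computed.

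Here, log2(FPKM + 1) was fitted in R 4.3.3 with limma 3.58.1, with a mean-variance trend, for the 12461 entries with a mean of at least 1 FPKM, and Benjamini-Hochberg adjustment ran over all of them. The script was tested on simulated data. Calls needed an adjusted p under 0.05 and a log2 fold change beyond 0.75, the thresholds of the study's methods, whose Cuffdiff test needs reads and was not repeated. Exact permutation tests were two-sided. Each member above 1 FPKM in a library was named, with values in every library for those called, those over 4 times the highest MEC value and above 1 FPKM in 1 line, and, chosen after their values were seen, some others. Each list names its called genes, at most 5 of them by size of change, and *Myd88*, *Lif*, *Csf1*, *Csf1r* and *Tslp* after their values were seen. Positions and overlaps came from GENCODE M21 on GRCm38, and promoter windows from RefSeq. Alternatives were a pseudocount of 0.1, no filter or a filter at a mean of 5 FPKM, quantile normalization, upper-quartile scaling, no trend, sample weights, no fold threshold, other FPKM levels for counting members (0.5 and 2) and each library left out in turn, with the set of entries kept as in the fit of all 6.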

Additional observations from a re-analysis of the deposited data

How the results depend on the processing

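*Il17b* was called lower in each of the alternative fits that tested it, and the other called members were not. The number of members called lower was 6, and became 3 with a filter at a mean of 5 FPKM, which tests fewer genes, 10 with sample weights (an estimate that stopped before it converged), and 1 to 8 with each library left out, 1, 1 and 2 of them without MEC 1, MEC 2 and MEC 3, 8 without line 199 and 3 without line 233. The number called higher was 1, and became 0 with no expression filter, where *Il34* had an adjusted p of 0.0648, and 0 to 2 with each library left out. Without line 199, *Il1rl2*, *Il18rap*, *Il15ra* and *Il17rc* were called. Of the 10 called partner genes, *Pycard*, *Ctss*, *Stat3* and *Stat5a* kept their call in each fit that tested them, and *Traf5* in 4 of 12. Over all entries 1234 were called (905 lower and 329 higher), 738 with the filter at 5 FPKM, 1978 with sample weights, and 300 to 1886 with each library left out, the extremes being without MEC 1 and without line 199. Quantile normalization gave 783 lower and 477 higher, which moved the share called higher from 26.7% to 37.9%. At a level of 2 FPKM in place of 1, 17 members instead of 26 were counted in line 336. Apart from the reasons given, the cause of these changes was not tested.

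No member that changed sign was called under any fit. Quantile normalization turned the log2 fold changes of *Il15* to 0.22, *Il17d* to 0.43, *Il17rd* to 0.31, *Il1rn* to 0.062 and *Il33* to 0.067, and sample weights turned *Il15* to 0.26 and *Il17ra* to -0.008. With each library left out, *Il10rb* ranged from -0.19 to 0.13, *Il15* from -0.47 to 0.20, *Il17ra* from -0.046 to 0.20, *Il1r1* from -1.32 to 0.065, *Il33* from -0.81 to 0.52 and *Il3ra* from -0.20 to 0.48. No paired analysis was possible because the groups share no replicate numbers.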
